A study of Homo sapiens with 6 samples.

Results

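Integrin and laminin subunits were followed in WPMY-1 cells, a stromal line of the human prostate, cultured with 24 mM lactate for 48 h (lactate, n = 3) or without it (control, n = 3). Members were all rows of the deposited count table with the symbol of an integrin alpha subunit (a number, *ITGAV*, *ITGAE* or *ITGAX*), a numbered integrin beta subunit or a laminin alpha, beta or gamma chain. This gave 32 of 15924 listed genes, made up of 13 integrin alpha, 7 integrin beta, 5 laminin alpha, 4 laminin beta and 3 laminin gamma genes. Every sample came from the same immortalized line, and the labels name no genetic change in either group. The sample labels describe growth in an atmosphere with CO2. The methods of the study instead describe HEPES medium free of bicarbonate and CO2, with the lactic acid brought by NaOH to a mildly acidic pH. The pH of the control medium is not given. Lactate and acidity therefore cannot be told apart here.

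Integrins are cell surface receptors made of an alpha and a beta subunit, and the pair decides which matrix protein is bound. Laminins are cross-shaped trimers of an alpha, a beta and a gamma chain that form, with type IV collagen, nidogen and perlecan, the sheet called the basement membrane. Fibroblasts and smooth muscle cells use integrins to hold and pull on the matrix, and they secrete laminins of their own.

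The libraries held 20238653 to 46505372 counts, the most in control replicate 1, and 13188 genes had enough counts to be tested. Levels are CPM (counts scaled to a library of equal total) after TMM scaling, which corrects for library composition. Counts followed the GC content and length of transcripts differently between libraries, and replicate 1 of each group stood apart from the others of that group at low GC content. For transcripts near 40% GC and 5000 bases, the fitted trend was -0.45, 0.0383 and -0.0822 on the log2 scale in lactate replicates 1, 2 and 3, against -0.216, 0.285 and 0.424 in the controls. Near 60% GC it was 0.206, 0.0888 and 0.16 with lactate, against 0.0446, -0.213 and -0.286 in the controls. Lactate replicate 1 lay close to lactate replicate 3 there, while control replicate 1 lay above the other controls and nearer to the lactate libraries. A fit that takes this trend on GC content and length out of each library, called the GC-corrected fit, is therefore given beside the results. Of 10 fibroblast markers all were tested, with a summed level of 5431 to 5470 CPM with lactate and 5416 to 6157 CPM in controls, and 1 was called lower. The smooth muscle list summed to 488 to 716 CPM with lactate and 164 to 252 CPM in controls, with 2 of 3 tested markers higher, *MYH11* not among the listed genes and *DES* near 0, and its part in the results was not tested. The epithelial list summed to 822 to 1209 CPM with lactate and 840 to 1277 CPM in controls, nearly all of it *KRT18* and *KRT8*, with *EPCAM* and *CDH1* near 0 and 0 of 4 tested markers called (1 at an unadjusted p under 0.05). The leukocyte list summed to 79.0 to 100.6 CPM with lactate and 56.5 to 60.8 CPM in controls, most of it *CD68*, with *PTPRC* near 0 and 1 of 2 tested markers called higher, and its part in the results was not tested. The endothelial list stayed at or below 1.76 CPM.

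Few members passed the test, and those that did lay at opposite ends of the range of GC content. Of 20 integrin genes 17 could be tested, and 2 rose with lactate (*ITGA7* and *ITGA2B*) and 1 fell (*ITGB8*) at an adjusted p under 0.05 in edgeR. Of 12 laminin genes 10 could be tested, and 2 rose (*LAMA5* and *LAMB2*) and 0 fell. Over all 13188 genes 5.29% rose and 4.14% fell, and counts this small set neither family apart from that background. The median log2 fold change was -0.02 over the tested integrins and 0.14 over the tested laminins, beside -0.02 over all genes tested. While 0 laminins fell in the edgeR fit, 1 was lower at an unadjusted p under 0.05, and 1 fell in DESeq2 and in the GC-corrected fit (*LAMB3* in each). In a culture measured in bulk, fewer cells that express a gene and less of its RNA per cell cannot be told apart.

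Promoters of called members and of the members with an AP-1 match are shown here, since the study followed the factor AP-1 and since the called genes differ in base composition. Sequences are RefSeq promoters on GRCh38, 130 bases before and 10 bases from the annotated start, written 5′ to 3′ on the strand of the gene. Capitals mark matches to the AP-1 motif TGANTCA (its own reverse complement but for the middle base, so both strands are covered) and to the GC box GGGCGG or its complement CCGCCC. The first 3 are shown for their AP-1 matches and were not called in the edgeR fit. The other 4 belong to called members and hold no AP-1 match. The table of promoters had no entry for *ITGA7*.

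LAMA3, chr18:23872890-23873029, plus strand: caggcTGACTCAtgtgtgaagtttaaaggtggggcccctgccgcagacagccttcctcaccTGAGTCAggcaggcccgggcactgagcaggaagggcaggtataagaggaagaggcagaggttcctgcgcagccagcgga

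LAMB3, chr1:209651365-209651504, minus strand: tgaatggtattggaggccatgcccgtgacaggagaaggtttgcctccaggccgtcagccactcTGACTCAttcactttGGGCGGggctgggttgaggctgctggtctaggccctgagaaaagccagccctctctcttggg

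ITGA5, chr12:54419257-54419396, minus strand: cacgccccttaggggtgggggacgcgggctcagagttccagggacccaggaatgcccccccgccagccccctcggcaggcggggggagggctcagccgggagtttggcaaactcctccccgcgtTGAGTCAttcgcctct

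LAMA5, chr20:62367303-62367442, minus strand: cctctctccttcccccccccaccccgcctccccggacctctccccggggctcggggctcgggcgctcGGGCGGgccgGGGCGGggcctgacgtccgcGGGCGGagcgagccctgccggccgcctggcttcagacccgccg

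LAMB2, chr3:49133041-49133180, minus strand: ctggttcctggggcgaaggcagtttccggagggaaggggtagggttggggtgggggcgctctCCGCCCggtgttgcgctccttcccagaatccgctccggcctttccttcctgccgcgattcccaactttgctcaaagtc

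ITGB8, chr7:20330770-20330909, plus strand: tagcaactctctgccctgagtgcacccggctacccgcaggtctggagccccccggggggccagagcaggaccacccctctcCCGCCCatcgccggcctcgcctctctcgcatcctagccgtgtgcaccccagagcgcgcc

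ITGA2B, chr17:44389640-44389779, minus strand: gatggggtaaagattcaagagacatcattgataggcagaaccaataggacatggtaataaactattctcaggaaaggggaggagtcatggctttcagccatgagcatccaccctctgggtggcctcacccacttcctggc

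*LAMA3* held matches 125 and 69 bases before its only listed start, which lies inside the annotated gene and not at its outermost start, *LAMB3* 67 bases before the most downstream of its 3 listed starts, and *ITGA5* a match that begins 6 bases before its start. The table gave 30 promoters of 300 bases for 23 of the 32 members, and 3 of the 30 (10.0%) held the AP-1 motif, beside 7.71% of all 35116 promoters. The GC box stood in 17 of the 30 (56.7%) and in 15786 of all 35116 promoters. *LAMA5* had 3 GC boxes in the stretch shown, and *ITGA2B*, with 48.8% GC in the 250 bases before its start, had none of either motif. A match describes these letters only.

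Of the laminin-binding integrins only *ITGA7* passed. *ITGA7*, the alpha subunit of the main laminin receptor of muscle, had 60.8, 59.6 and 52.4 CPM in lactate replicates 1, 2 and 3, against 42.4, 32.1 and 31.1 CPM in control replicates 1, 2 and 3. All lactate libraries lay above all controls, and the gene rose on the log2 scale by 0.71 (SE 0.170, adjusted p = 0.0353), or 1.63-fold. The call held without control replicate 1 (adjusted p = 0.0104) and was lost without any other library, at adjusted p = 0.180 and 0.130 without control replicates 2 and 3 and 0.072, 0.0926 and 0.114 without lactate replicates 1, 2 and 3. In the GC-corrected fit its log2 fold change was 0.41 (adjusted p = 0.0176). *ITGA7* is a minus-strand gene of chromosome 12 (GRCh38, 55684568 to 55716043), and *METTL7B* and *BLOC1S1*, which overlap it on the other strand, had log2 fold changes of -0.91 and 0.21 that did not pass (adjusted p = 0.247 and 0.601). Whether the counting used strand is not given, so reads in the overlaps could not be assigned with certainty.

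The other laminin-binding alpha subunits did not pass. *ITGA3*, which binds laminins in many epithelia and fibroblasts, had 216.6, 208.2 and 222.2 CPM with lactate and 217.5, 157.9 and 164.2 CPM in controls, where control replicate 1 fell inside the lactate range. *ITGA6*, which pairs with either *ITGB1* or *ITGB4*, had 34.1, 56.7 and 47.7 CPM with lactate and 33.2, 50.002 and 57.4 CPM in controls. In both groups replicate 1 was the lowest library for *ITGA6*, and the log2 fold change was -0.02 (SE 0.246, adjusted p = 0.966). *ITGB4*, the beta subunit of hemidesmosomes, was low, with 3.47, 3.72 and 3.36 CPM with lactate against 2.89, 2.71 and 2.91 CPM in controls. Its groups did not overlap, but the log2 fold change of 0.31 missed the threshold (adjusted p = 0.369) and turned to -0.07 in the GC-corrected fit.

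Collagen receptors included the clearest lower values among the alpha subunits. *ITGA2*, a receptor for fibrillar collagen, had 16.2, 24.8 and 26.6 CPM with lactate, against 30.2, 44.5 and 56.4 CPM in controls. Every lactate library was below every control, and the log2 fold change of -0.95 lay just outside the threshold (SE 0.265, adjusted p = 0.0541). A call was made without control replicate 1 (adjusted p = 0.017), in DESeq2 (adjusted p = 0.00712) and in the GC-corrected fit, where it was smaller (log2 fold change -0.61, adjusted p = 0.00445). *ITGA2* did not pass with any other single library left out (adjusted p = 0.0878 to 0.181), and passed in 4 of 13 alternative fits. The other collagen receptor subunits *ITGA1*, *ITGA10* and *ITGA11* overlapped between the groups and had log2 fold changes of -0.34, -0.28 and 0.24 at levels of 0.737 to 10.7 CPM. *PELO*, which overlaps *ITGA1* on the same strand, had 72.1 to 83.8 CPM with lactate and 64.1 to 72.2 CPM in controls.

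Receptors for fibronectin and other proteins with the RGD sequence included the most abundant alpha subunit. *ITGA5*, whose product binds fibronectin, had 486.9, 486.4 and 533.5 CPM with lactate, against 403.0, 335.7 and 346.2 CPM in controls. The lactate libraries lay within a narrow band above all controls, and its 0.47 on the log2 scale (SE 0.135) was not called at adjusted p = 0.0579. *ITGA5* did pass in the GC-corrected fit (0.28, adjusted p = 0.0288), in DESeq2 (adjusted p = 0.0177), when scaled by library totals (adjusted p = 0.0411) and without control replicate 1 (adjusted p = 0.018). It did not pass with any other single library left out (adjusted p = 0.0807 to 0.266), and passed in 5 of 13 alternative fits. *ITGAV*, the alpha subunit of the vitronectin receptors that also activate latent TGF-beta, had 20.9, 32.5 and 29.2 CPM with lactate and 27.6, 43.7 and 53.4 CPM in controls. These ranges overlapped (log2 fold change -0.59, adjusted p = 0.178), and the difference was -0.20 in the GC-corrected fit.

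*ITGA2B*, known as the alpha subunit of the platelet fibrinogen receptor, rested on few counts. It had 29, 41 and 17 counts with lactate (1.525, 1.70 and 0.696 CPM), against 20, 4 and 3 counts in controls (0.459, 0.1905 and 0.118 CPM). The log2 fold change was 2.20 (SE 0.554, adjusted p = 0.0414), and in the GC-corrected fit it was 1.93 (adjusted p = 0.027). The call held without control replicate 1, where the log2 fold change was 3.05 (adjusted p = 0.0187), and was lost at adjusted p = 0.171 and 0.119 without control replicates 2 and 3 and 0.0892, 0.102 and 0.0692 without lactate replicates 1, 2 and 3. The gene lies on chromosome 17 at 44372180 to 44389505. *ITGB3*, its partner subunit and also a partner of *ITGAV*, had 3.73, 5.75 and 8.11 CPM with lactate against 2.75, 2.00 and 3.23 CPM in controls. Lactate libraries were again all above the controls, and the log2 fold change of 1.14 missed the threshold (SE 0.317, adjusted p = 0.0542), passing in the GC-corrected fit (0.99, adjusted p = 0.0412), in DESeq2 (adjusted p = 0.00885) and without lactate replicate 1 (adjusted p = 0.0279).

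Integrin subunits best known from leukocytes were low or did not pass. *ITGA4*, a receptor for *VCAM1* and fibronectin, had 6.73, 11.3 and 10.8 CPM with lactate and 11.1, 16.001 and 20.4 CPM in controls (log2 fold change -0.71, adjusted p = 0.133). *ITGAE*, the E-cadherin receptor subunit of tissue T cells, had 20.5, 16.5 and 15.5 CPM with lactate, against 24.0, 25.9 and 25.2 CPM in controls. No lactate library reached the controls for *ITGAE*, and the log2 fold change of -0.52 (adjusted p = 0.0863) became -0.74 in the GC-corrected fit (adjusted p = 0.00688). *ITGAE* also passed in DESeq2 (adjusted p = 0.0337), but in no fit with 1 library left out (adjusted p = 0.0524 to 0.289). *GSG2*, which lies inside *ITGAE* on the other strand, had 36.8 to 44.6 CPM with lactate and 38.1 to 44.7 CPM in controls (log2 fold change -0.05). Reads in that overlap could not be assigned with certainty either. The untested *ITGAX*, *ITGB2* and *ITGB7* had 0 to 12 counts in any library. *ITGAX* had 0 counts in replicate 1 of both groups, which allows up to 3 counts, or 0.158 CPM in the lactate library and 0.0688 CPM in the control, for counting error only.

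Of the beta subunits, only *ITGB8* passed in the edgeR fit. *ITGB8*, the partner of *ITGAV* that activates latent TGF-beta, had 0.684, 2.85 and 1.51 CPM with lactate, against 3.97, 6.05 and 8.50 CPM in controls. Each lactate library was below each control, and the gene fell by 1.84 on the log2 scale (SE 0.460, adjusted p = 0.0406). In the GC-corrected fit the log2 fold change was -1.49 (adjusted p = 0.00844). Its call held without control replicate 1 (adjusted p = 0.0221) and without lactate replicate 2, where the log2 fold change was -2.45 (adjusted p = 0.0228), and was lost without control replicates 2 and 3 (adjusted p = 0.136 and 0.108), without lactate replicates 1 and 3 (adjusted p = 0.0627 and 0.144) and when scaled by library totals (adjusted p = 0.0651). *ITGB8* lies on chromosome 7 at 20330702 to 20415754 on the plus strand, and its longest transcript has the lowest GC content of the tested members, 37.8%.

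*ITGB1*, the common partner of most alpha subunits here, had 189.4, 351.1 and 300.3 CPM with lactate and 333.6, 520.3 and 616.6 CPM in controls. Replicate 1 was the lowest library of each group, and lactate replicate 2 exceeded control replicate 1. The log2 fold change of -0.81 missed the threshold (SE 0.271, adjusted p = 0.0916). In the GC-corrected fit, the levels of *ITGB1* were 245.7, 349.1 and 327.3 CPM with lactate against 381.3, 425.9 and 468.8 CPM in controls, no longer overlapping, at -0.47 on the log2 scale (adjusted p = 0.0407), and it passed in DESeq2 (adjusted p = 0.0321) and without control replicate 1 (adjusted p = 0.0264). *ITGB1* did not pass with any other single library left out (adjusted p = 0.0798 to 0.264), and passed in 4 of 13 alternative fits. *ITGB5*, another partner of *ITGAV*, had 97.9, 98.6 and 95.5 CPM with lactate, against 88.0, 71.1 and 63.6 CPM in controls. Its lactate libraries were close together and above all controls, yet the log2 fold change of 0.39 did not pass (adjusted p = 0.142). Without control replicate 1, *ITGB5* passed (0.53, adjusted p = 0.0235), as did *ITGA3* (0.42, adjusted p = 0.0347), *ITGA4* (-0.92, adjusted p = 0.0376) and *ITGAV* (-0.82, adjusted p = 0.0324). Over all 13387 genes tested, that fit called 1480 higher and 1612 lower. None of these integrins passed with any other single library left out, and *ITGA3* stood at -0.058 in the GC-corrected fit.

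**Figure D1:**
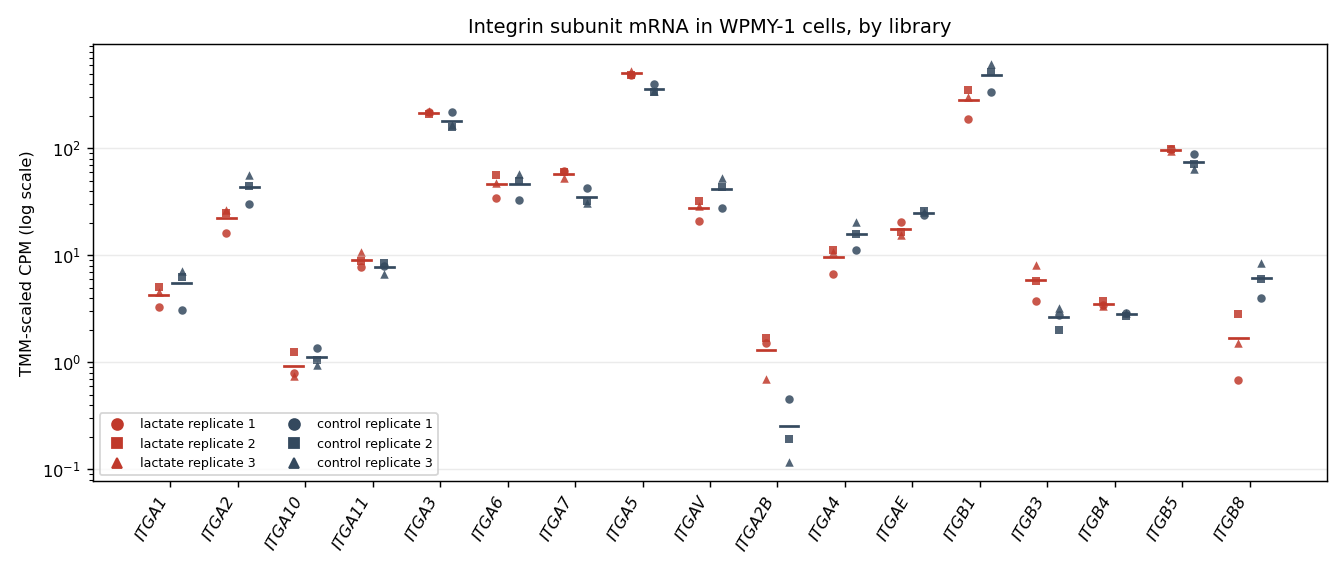
Levels of the 17 tested integrin genes in each library, in TMM-scaled CPM on a log axis, with lactate (red) left of control (dark blue) and a bar at the mean of 3 libraries. *ITGB8* had 0.684 to 2.85 CPM with lactate and 3.97 to 8.50 CPM in controls, and *ITGA7* 52.4 to 60.8 CPM with lactate and 31.1 to 42.4 CPM in controls.

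Among laminins, the called chains were an alpha and a beta chain that can assemble together. *LAMA5*, the alpha chain found in most adult basement membranes, had 20.9, 28.6 and 31.4 CPM with lactate, against 14.8, 14.3 and 13.4 CPM in controls. The controls were close together and below every lactate library, and the gene rose on the log2 scale by 0.93 (SE 0.192, adjusted p = 0.0223), or 1.90-fold. *LAMB2*, the beta chain of vascular, kidney and nerve-muscle basement membranes, had 140.2, 145.1 and 148.2 CPM with lactate, against 103.0, 80.1 and 85.6 CPM in controls. It rose on the log2 scale by 0.69 (SE 0.145, adjusted p = 0.0231), or 1.61-fold, again without overlap. In the GC-corrected fit, both rises were smaller, at 0.47 for *LAMA5* (adjusted p = 0.0333) and 0.39 for *LAMB2* (adjusted p = 0.0118).

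Both calls held without control replicate 1 (adjusted p = 0.0206 for *LAMA5* and 0.00866 for *LAMB2*) and without lactate replicate 1 (adjusted p = 0.0121 and 0.037). They were lost without control replicate 2 (adjusted p = 0.122 and 0.147), control replicate 3 (0.0808 and 0.0942), lactate replicate 2 (0.0663 and 0.0692) and lactate replicate 3 (0.12 and 0.124), in the same order. *LAMA5* lies on chromosome 20 at 62307955 to 62367312 on the minus strand, with *ADRM1* overlapping it on the plus strand (log2 fold change 0.01). *LAMB2* lies on chromosome 3 at 49121114 to 49133118, also on the minus strand. The pseudogene *LAMB2P1*, which could share reads with *LAMB2*, had 3 to 10 counts in any library.

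*LAMA3* and *LAMB3*, chains of the epithelial anchoring laminin, did not share the direction of *LAMA5* and *LAMB2*. *LAMB3* had 10.0, 10.1 and 15.1 CPM with lactate, against 22.5, 17.4 and 16.6 CPM in controls. Lactate libraries were below all controls, and the log2 fold change of -0.68 missed the threshold (SE 0.225, adjusted p = 0.0881). *LAMB3* passed in DESeq2 (adjusted p = 0.0364) and in the GC-corrected fit (-0.95, adjusted p = 0.00664), but in no fit with 1 library left out (adjusted p = 0.106 to 0.217). *LAMA3* had 8.89, 15.8 and 18.2 CPM with lactate and 13.6, 18.1 and 22.2 CPM in controls (log2 fold change -0.32, adjusted p = 0.480). The ranges of *LAMA3* overlapped between the groups.

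*LAMC1*, *LAMB1* and *LAMA4*, which are abundant here, varied more among the lactate libraries than between the groups. The gamma chain of most laminins, *LAMC1*, had 277.0, 425.6 and 433.6 CPM with lactate and 292.4, 278.0 and 352.7 CPM in controls (log2 fold change 0.30, adjusted p = 0.337). *LAMB1*, its usual beta partner, had 147.5, 233.1 and 219.4 CPM with lactate and 148.5, 173.0 and 207.9 CPM in controls (log2 fold change 0.18, adjusted p = 0.585). *LAMA4*, the alpha chain typical of mesenchymal and vessel-wall cells, had 68.2, 123.3 and 118.0 CPM with lactate and 74.3, 96.4 and 118.8 CPM in controls (log2 fold change 0.10, adjusted p = 0.825). In all 3 genes lactate replicate 1 was the lowest library. *LAMA1*, an embryonic alpha chain, had 8.94, 13.4 and 11.0 CPM with lactate and 9.52, 8.43 and 10.8 CPM in controls. The muscle chain *LAMA2* stayed at or below 1.06 CPM, and *LAMB4* and *LAMC3* were too low to test in the edgeR fit, with 0 to 4 and 2 to 58 counts. The 58 counts of *LAMC3* were in lactate replicate 3. Without replicate 1 of both groups, a setting chosen after the data were examined, *LAMC3* was tested and rose (log2 fold change 2.64, adjusted p = 0.000152). No other fit that tested *LAMC3* called it.

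**Figure D2:**
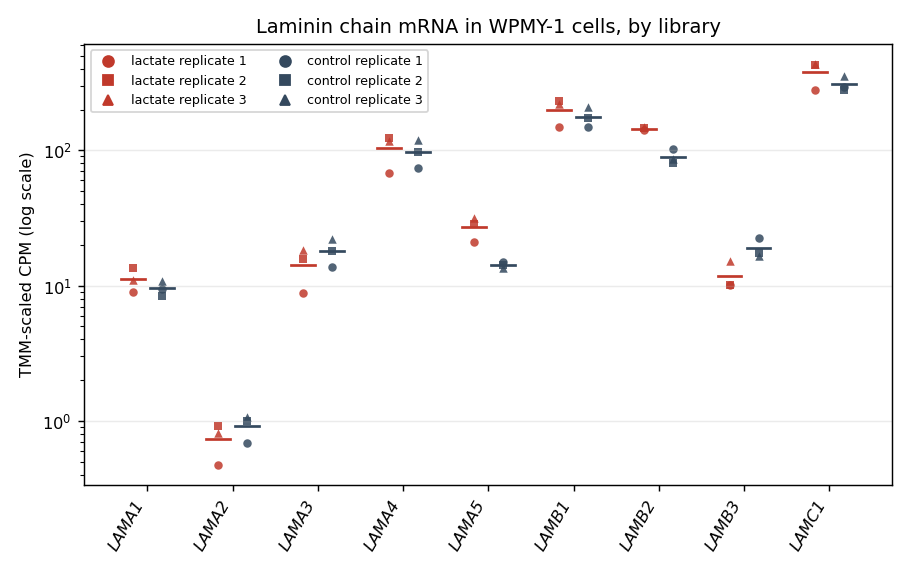
Levels of 9 tested laminin genes in each library, in TMM-scaled CPM on a log axis, with lactate (red) left of control (dark blue) and a bar at the mean of 3 libraries. *LAMA5* and *LAMB2* do not overlap between the groups and are higher with lactate, *LAMB3* does not overlap and is lower, and the other 6 plotted overlap.

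In all, 9 of 17 tested integrins and 3 of 10 tested laminins did not overlap between the groups, beside 32.6% of all tested genes. The integrins without overlap were 6 higher (*ITGA2B*, *ITGA5*, *ITGA7*, *ITGB3*, *ITGB4* and *ITGB5*) and 3 lower (*ITGA2*, *ITGAE* and *ITGB8*).

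The direction of the integrins followed the GC content of their longest transcript, and that of the laminins did so less clearly. All 7 tested members under 45% GC, every one of them an integrin, had negative log2 fold changes, with a median of -0.71. Of the 7 members over 55% GC, 6 were positive, with a median of 0.69, and *LAMB3* was the exception. The 13 members between 45% and 55% GC went both ways, with 8 positive and 5 negative. The same order held in the whole table, with medians of -0.31 for 4841 genes under 45% and 0.26 for 3762 genes over 55%. Across the 27 tested members Pearson's r between GC content and log2 fold change was 0.675 (Spearman's rho 0.692), and 0.428 (0.416) in the GC-corrected fit. In the edgeR fit r was 0.726 (rho 0.728) across the 17 integrins alone and 0.462 (0.248) across the 10 laminins. Across 12790 tested genes with a known GC content r was 0.451. These are descriptions across genes, which share their 6 libraries and are not independent. The part of this relation in the calls was not tested beyond the GC-corrected fit, in which r across the members was still 0.428.

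In that GC-corrected fit 4 integrins rose (*ITGA2B*, *ITGA5*, *ITGA7* and *ITGB3*) and 4 fell (*ITGA2*, *ITGAE*, *ITGB1* and *ITGB8*), and 2 laminins rose (*LAMA5* and *LAMB2*) and 1 fell (*LAMB3*). Over all genes that fit called 10.4% higher and 11.9% lower. The 5 members called in the edgeR fit were all among these 11. Another fit left out replicate 1 of both groups, the 2 libraries that stood apart at low GC content. In it 6 integrins rose and 7 fell and 5 laminins rose and 1 fell, where 22.6% of all genes rose and 24.8% fell. That setting leaves 2 libraries a group and was chosen after the data were examined.

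**Figure D3:**
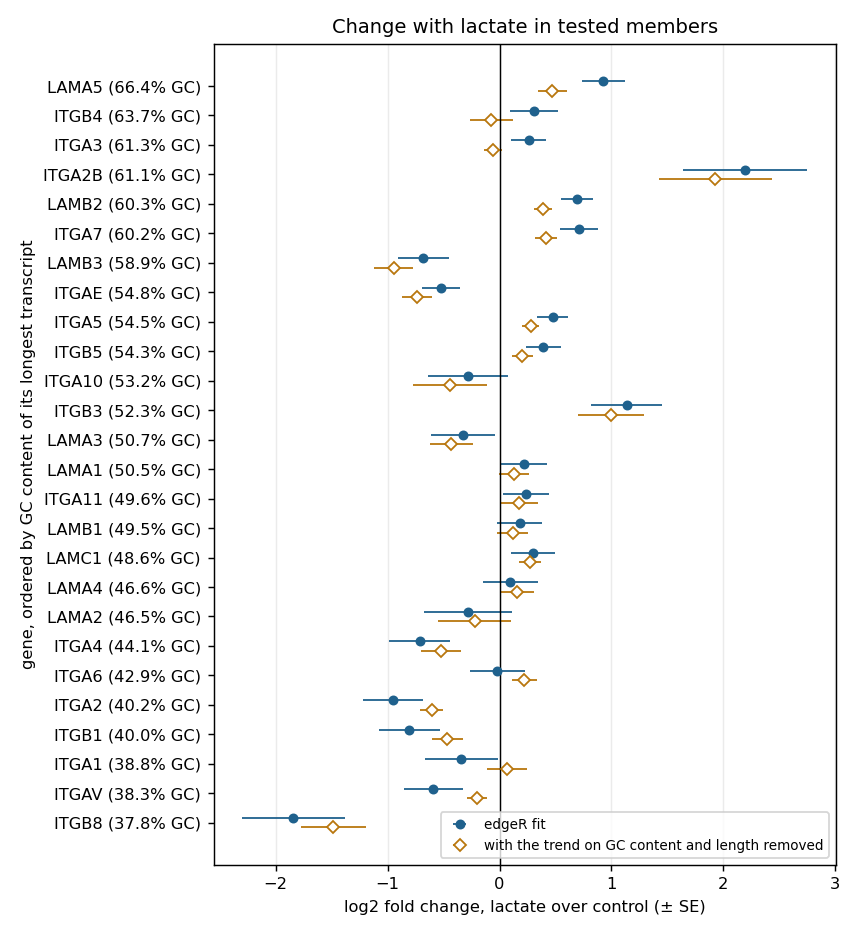
Log2 fold change, lactate over control, with its SE for 26 tested members, ordered by the GC content of the longest transcript, in the edgeR fit (blue circles) and in the GC-corrected fit (open diamonds). *ITGB8* at 37.8% GC stands at -1.84 and *LAMA5* at 66.4% GC at 0.93, and the diamonds lie closer to 0 for both.

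To compare genes with each other, levels were divided by the length of the longest transcript. This fits reads spread along transcripts, as the labels' kit gives, whereas the library section of the study describes a kit that reads transcript ends only, for which levels and shares per length would not be comparable between genes. On this scale *ITGA5* had 100.5 ± 5.42 CPM per kilobase with lactate and 72.4 ± 7.25 in controls (SD, n = 3 each), and *ITGB1* had 74.1 ± 21.9 with lactate and 129.5 ± 38.02 in controls. The SDs of *ITGB1* and *ITGA5* do not overlap in controls, where *ITGB1* was the higher. With lactate *ITGA5* was the higher by its mean, and the SDs of the pair met. *LAMC1* (48.0 ± 11.2 with lactate, 39.0 ± 5.025 in controls), *ITGA3* (39.4 ± 1.29 and 32.8 ± 5.98), *LAMB1* (34.7 ± 7.97 and 30.6 ± 5.17) and *LAMB2* (25.5 ± 0.704 and 15.8 ± 2.10) came next. With lactate the mean of *ITGA3* lay within the SDs of *LAMC1* and *LAMB1*, while the means of *LAMC1* and *LAMB1* lay outside the SD of *ITGA3*.

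The integrin and the laminin alpha and beta classes were each dominated by a few genes. The share that a chain takes of the summed CPM per kilobase of its class was compared over the 6 libraries by a two-sided exact permutation test, which cannot go below p = 0.1 with 3 against 3. Of the integrin beta pool *ITGB1* made up 74.2 ± 5.93% with lactate and 86.4 ± 5.53% in controls (SD, n = 3 each), and *ITGB5* 23.4 ± 5.91% with lactate and 12.3 ± 5.34% in controls. For both the groups did not overlap (exact p = 0.1, and 0.188 adjusted over the 32 chains compared). In the GC-corrected fit, *ITGB1* took 77.7 ± 2.84% with lactate and 84.8 ± 2.23% in controls, and *ITGB5* 20.3 ± 3.03% and 13.7 ± 2.28%. *ITGA5* made up 56.6 ± 1.41% of the alpha pool with lactate and 49.7 ± 2.20% in controls (exact p = 0.1), followed by *ITGA3* with 22.2 ± 0.798% and 22.5 ± 2.77% (exact p = 1.0). The GC-corrected share of *ITGA3* was 21.1 ± 0.063% with lactate and 23.9 ± 1.27% in controls, without overlap (exact p = 0.1).

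Among laminin alpha chains *LAMA4* held 76.2 ± 1.67% with lactate and 78.6 ± 2.24% in controls (exact p = 0.3). *LAMA5* held 11.7 ± 1.36% with lactate and 6.88 ± 1.75% in controls, and *LAMA3* 6.44 ± 0.690% and 8.99 ± 0.356% (exact p = 0.1 for both). Of the beta chains *LAMB2* held 41.0 ± 5.21% with lactate and 31.2 ± 5.04% in controls, and *LAMB3* 4.35 ± 0.894% and 8.67 ± 1.83% (exact p = 0.1 for both). GC-corrected shares differed less for *LAMA5* (9.95 ± 0.268% with lactate, 7.94 ± 0.688% in controls) and *LAMB2* (38.97 ± 2.95% and 32.9 ± 2.80%), still without overlap. Shares within a class depend on each other, and these describe mRNA, not assembled receptors or trimers.

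**Figure D4:**
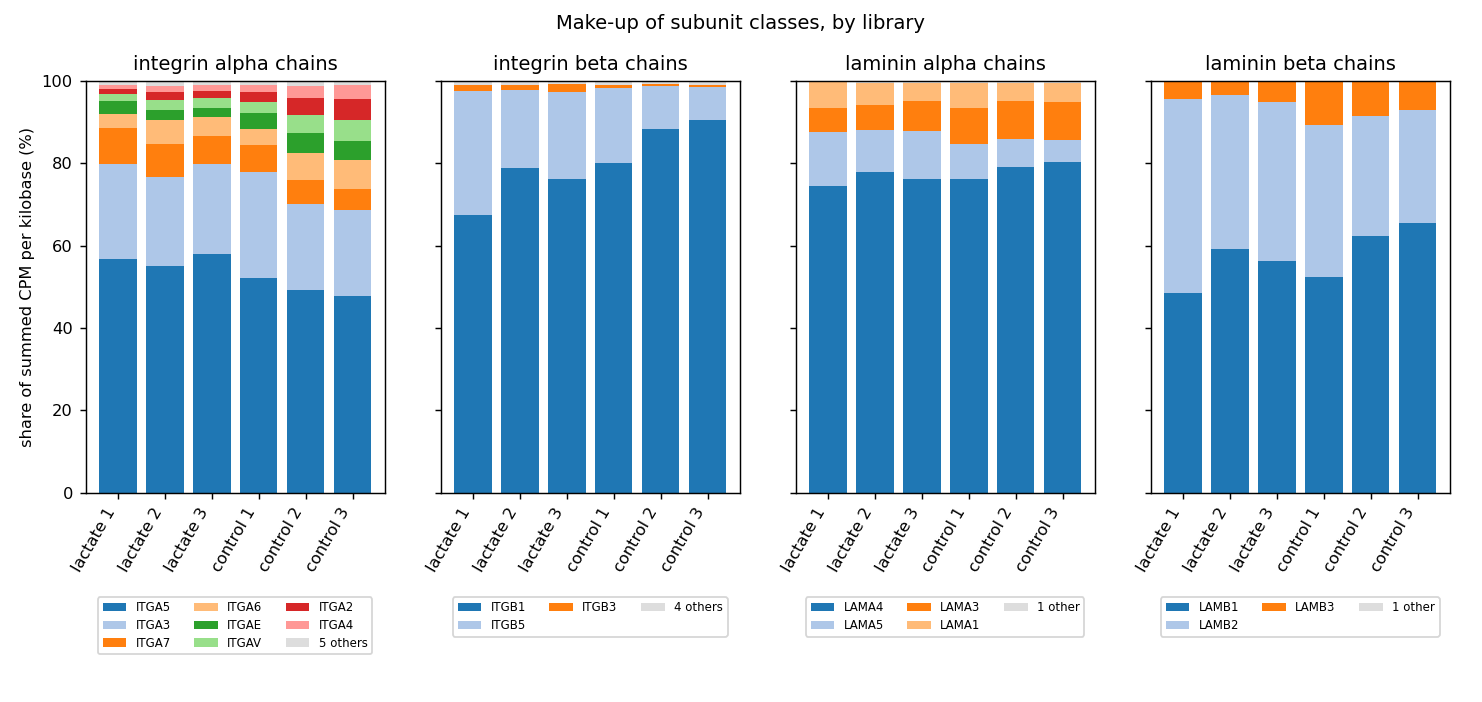
Share of the summed CPM per kilobase that each chain took within its class, in percent, for each library, with lactate libraries left of controls; chains under 1% in both groups are summed in grey. *ITGB1* took 67.5 to 78.8% of the beta pool with lactate and 80.1 to 90.6% in controls, and *LAMA5* 10.3 to 13.1% of the laminin alpha pool with lactate and 5.21 to 8.70% in controls.

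Genes that work with these subunits were taken from 5 lists. Of 18 tested basement membrane partners 6 rose and 3 fell, beside 5.29% and 4.14% of all genes. The balance turned in the GC-corrected fit, to 5 higher and 6 lower, beside 10.4% and 11.9% of all genes. The higher count dropped to 0 and 3 without control replicates 2 and 3 and to 2 without lactate replicate 2 or 3, while 2 or 3 stayed lower. In the same fits, in that order, higher calls over all genes were 92, 203, 288 and 129. The network-forming collagen IV chains *COL4A2* and *COL4A1* rose by log2 fold changes of 1.01 (adjusted p = 0.00644) and 0.77 (adjusted p = 0.026), the perlecan gene *HSPG2* by 0.88 (adjusted p = 0.0299), the nidogen gene *NID1*, which links laminin to collagen IV, by 0.68 (adjusted p = 0.0409) and the agrin gene *AGRN* by 0.57 (adjusted p = 0.032). *AGRN* no longer passed in the GC-corrected fit (0.08, adjusted p = 0.507), where the other 4 did. *MEGF6* also rose, on 32, 15 and 31 counts with lactate against 2, 2 and 3 counts in controls. By contrast, *COL7A1* of anchoring fibrils had 40.4, 45.3 and 42.1 CPM with lactate, against 103.1, 78.8 and 95.2 CPM in controls, and *COL17A1*, a hemidesmosome collagen, had 13.3, 11.1 and 12.7 CPM with lactate, against 28.96, 24.05 and 25.59 CPM in controls.

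Those 2 genes and *COL4A6* were the 3 that fell, by 1.12, 1.08 and 1.27 on the log2 scale (adjusted p = 0.00538, 0.00822 and 0.00548). In the GC-corrected fit their log2 fold changes were larger, at -1.52, -1.30 and -1.46. *COL7A1* and *COL17A1* encode partners of the anchoring laminin whose chains *LAMA3* and *LAMB3* did not pass in the edgeR fit. *COL4A1*, *COL4A2*, *HSPG2*, *NID1* and *AGRN* were named after their values were seen.

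Of 14 tested laminin receptors other than integrins, 1 rose (*BCAM*) and 0 fell in the edgeR fit, beside 5.29% and 4.14% of all genes. *BCAM* was lost without control replicate 2, control replicate 3 or lactate replicate 3. It encodes the Lutheran glycoprotein, a receptor for the laminin chain of *LAMA5*, and had 57.8, 54.0 and 54.9 CPM with lactate, against 33.6, 30.3 and 25.1 CPM in controls. It rose by 0.91 on the log2 scale (SE 0.159, adjusted p = 0.0123), and 0.51 in the GC-corrected fit (adjusted p = 0.00748). The groups of *BCAM* were well apart, as were those of *LAMA5*.

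Integrin ligands other than laminins went both ways, with 5 of 33 tested genes higher and 6 lower, beside 5.29% and 4.14% of all genes. There were 3 higher without control replicate 2, control replicate 3 or lactate replicate 3, and 3 lower without control replicate 2. Calls over all genes also fell in these fits, to 92, 203 and 129 higher, and to 80 lower without control replicate 2. *CYR61*, a ligand of several RGD-binding integrins and of the heparan sulfate chains of cell surfaces, had 1490.6, 1280.0 and 1386.5 CPM with lactate, against 539.3, 456.2 and 485.1 CPM in controls (log2 fold change 1.49, adjusted p = 0.00113). *VCAM1*, the membrane ligand of the *ITGA4* receptor, had 17.6, 22.9 and 15.4 CPM with lactate, against 45.2, 55.8 and 59.5 CPM in controls (log2 fold change -1.52, adjusted p = 0.0044). In neither gene did the groups overlap. *NOV*, related to *CYR61* but lower with lactate, stood at -1.87 on the log2 scale (adjusted p = 0.0044), and the osteopontin gene *SPP1* had 0, 3 and 5 counts with lactate against 45, 27 and 27 counts in controls.

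Inside the cell, few adhesion adaptors passed. Of 36 tested focal adhesion genes 1 rose and 1 fell, beside 5.29% and 4.14% of all genes. *PARVB*, which binds integrin-linked kinase, rose (log2 fold change 0.79, adjusted p = 0.0482), and the tensin gene *TENC1* fell (-0.65, adjusted p = 0.032). Both counts were 0 when control replicate 2, control replicate 3 or any lactate library was left out, where calls over all genes also fell. That list had 2 higher and 12 lower genes in the GC-corrected fit, where 10.4% and 11.9% of all genes were called. Of 20 tested regulators and membrane partners of integrins 0 rose and 3 fell in edgeR, beside 5.29% and 4.14% of all genes. In this list 2 were higher at an unadjusted p under 0.05 and 1 rose in DESeq2. The lower count was 0 without control replicate 2 or lactate replicate 3, 1 without control replicate 3, lactate replicate 1 or lactate replicate 2, and 5 without control replicate 1. Over all genes, 80 of 13399 were lower without control replicate 2 and 1612 of 13387 without control replicate 1. *CAV1*, which coats membrane pits and takes part in integrin uptake, had 292.5, 398.5 and 328.2 CPM with lactate, against 556.3, 912.0 and 880.0 CPM in controls (log2 fold change -1.20, adjusted p = 0.0123). *RAP1B*, a switch protein of integrin activation, fell by 0.71 and *CD47*, which associates with the *ITGB3* receptor, by 0.66 on the log2 scale (adjusted p = 0.0388 and 0.0347). Neither *RAP1B* nor *CD47* passed in the GC-corrected fit (adjusted p = 0.228 and 0.254), while *CAV1* did (-1.11, adjusted p = 0.00224).

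**Figure D5:**
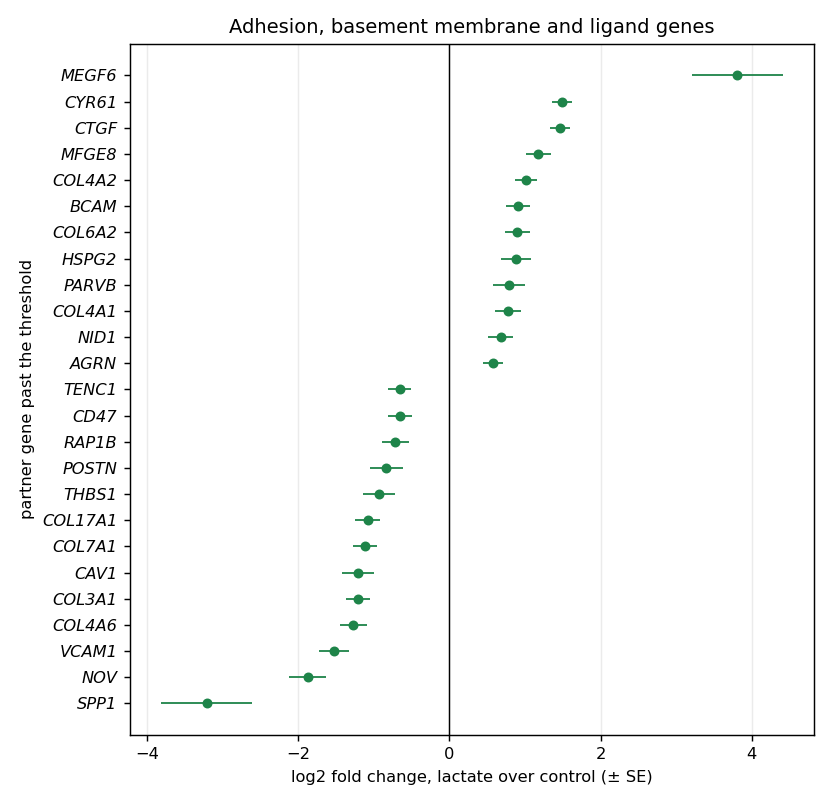
Log2 fold change, lactate over control, with its SE for the 25 genes of the partner lists past the threshold in the edgeR fit, ordered by size. *MEGF6* at 3.81, which rests on few control counts, is at the top and *SPP1* at -3.21 at the bottom, with 12 genes higher and 13 lower in all.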

How the data were processed

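RNA-seq of 6 WPMY-1 libraries was analysed, grouped by the treatment label. Per the labels, poly(A) RNA and a directional kit were used with single-end reads. The library section of the study describes a transcript-end kit instead, and the labels were followed. Values are raw counts of reads for each gene symbol, as deposited. STAR, DESeq2 and the build hg38 stand in the submitters' processing notes. Their versions and the strand setting are not given in the sources used here. No per-sample column was left out.

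Counts were tested across all 13188 genes by the two-sided quasi-likelihood test of edgeR 4.0.16 (R 4.3.3) after TMM scaling and the filterByExpr filter. Benjamini-Hochberg adjustment covered every tested gene, at a threshold of 0.05. The SE is the absolute log2 fold change over the root of the F statistic. Totals of 20238653 to 46505372 counts set the counting precision, and edgeR's common biological coefficient of variation came to 20.2%. The methods of the study call samples biological replicates, but the labels do not name separate cultures, so p-values measure the spread between these samples, which may be technical. No library was a copy of another (chi-square per degree of freedom at least 7.13 over genes with 20 counts in a pair). By this measure replicate 1 was far from replicates 2 and 3 of its group, at 66.19 and 117.1 in controls and 68.87 and 59.35 with lactate. Replicates 2 and 3 stood at 10.38 from each other in controls and 7.13 with lactate.

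Lengths, GC content and coordinates came from GENCODE 29 on GRCh38, matched by symbol for 15255 genes (95.8%), using the longest transcript, which may not be the expressed isoform. The trend was a spline of each library's deviation on GC content and log2 length, with 5 degrees of freedom each, entered as an offset. Alternatives were RLE size factors, total library size, DESeq2 1.42.0, no filter, at least 1 CPM in 3 libraries, the trend removed and each library left out. Scripts were tested on simulated data. Values in each library are given for members past the threshold or averaging at least 10 CPM, with *ITGB3* and *ITGB4* added after their values were seen, and partner genes are the 4 largest changes past the threshold in each list. The members and lists were chosen with earlier results of these data known. Values of 1 laminin gene are not reported here.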

Additional observations from a re-analysis of the deposited data

How the results depend on the processing

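All counts of calls moved with the processing. Higher and lower calls over all genes were 698 and 546, and became 1155 and 1092 in DESeq2, 1365 and 1570 in the GC-corrected fit, 3002 and 3293 without replicate 1 of both groups, and 92 to 1480 and 79 to 1612 when each library was left out. The median log2 fold change of all genes was -0.02 in edgeR and -0.034 when scaled by library totals. For integrins (2 higher, 1 lower) the counts were 4 and 4 in DESeq2, 4 and 4 in the GC-corrected fit, 6 and 7 without replicate 1 of both groups, and 0 to 5 and 0 to 5 with each library left out. Higher integrins fell to 1 with at least 1 CPM in 3 libraries, which leaves *ITGA2B* untested, and integrins were 3 higher and 0 lower when scaled by library totals. For laminins (2 higher, 0 lower) there were 5 higher and 1 lower without replicate 1 of both groups, 1 lower in DESeq2 and 1 lower in the GC-corrected fit, and 0 to 2 higher with each library left out. Partner genes (12 higher, 13 lower) had 30 lower in the GC-corrected fit, 37 higher and 34 lower without replicate 1 of both groups, and 3 to 20 higher and 6 to 21 lower with each library left out. The cause was not tested. With 1 library left out, calls over all genes rose without control replicate 1 and fell without any other library.

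Directions turned for *ITGA1* (0.065), *ITGA3* (-0.058), *ITGA6* (0.22) and *ITGB4* (-0.073) in the GC-corrected fit, for *ITGA6* with libraries left out (-0.22 to 0.16) and for *LAMA4* with libraries left out (-0.061 to 0.32), none of them called. The share of *LAMA4* differed by -2.40 percentage points and by 1.15 in the GC-corrected fit. No paired analysis was possible because the labels give no replicate numbers shared between the groups.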

Other observations

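Symbols close to the family names but outside it were also read. *ITGBL1*, which encodes a secreted protein with integrin-like repeats and is no receptor subunit, had 22.2, 32.3 and 27.6 CPM with lactate, against 54.0, 54.8 and 60.5 CPM in controls (log2 fold change -1.04, edgeR adjusted p = 0.00999). It was chosen after its values were seen. The leukocyte subunits *ITGAL* and *ITGAM* had 0 to 7 and 2 to 16 counts in any library and were not tested.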
